A study of Iris tectorum with 6 samples.

Results

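The plastid transcripts of Iris tectorum leaves were followed through 153 unigenes (assembled transcripts) out of 111791 that had reads in at least 1 of 5 RNA-seq libraries. A unigene was a member if the description of its best protein hit in the nr database held any of 8 phrases, ignoring case: a (chloroplast) or (plastid) tag, the name of the photosystem II antenna protein CP43 in its molecular-mass form, maturase K, hypothetical chloroplast RF, Ycf1, Ycf2 or NADH-plastoquinone. The phrases did not use any measured level. By product and by species of the hit, 128 members carried a plastid gene of a land plant, 15 had their best hit in an alga or in a photosynthetic amoeba, 7 were nuclear genes, and 3 fell elsewhere, 2 without a gene name and 1 with a synthetic construct as its hit.

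The study asked how leaves differ between irises that share their water with a microalga and irises grown without one. In the co-culture group the plants stood in swine wastewater together with the green microalga Dictyosphaerium sp., and in the plant alone group they stood in the same kind of wastewater without the added alga. Both groups were kept in a glasshouse, with water 12.3 ± 0.8 cm deep on average, and leaves were sampled. The labels give 3 samples per group. All 3 co-culture libraries were analysed (co-culture 1, 2 and 3), together with 2 plant alone libraries (plant alone 2 and 3). The library of plant alone 1 was not used here. The labels give no age, no cultivar and no pooling, and they do not state whether samples came from separate tanks, so a p-value here measures the spread between these samples, which may be technical.

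A plastid genome is the reduced remnant of a cyanobacterial genome. It encodes core subunits of the photosystems, of the cytochrome b6f complex, of the ATP synthase and of an NADH dehydrogenase-like (NDH) complex, along with a bacterial-type RNA polymerase and part of a ribosome, while most other chloroplast proteins come from nuclear genes and are imported. Plastid genes lie in operons, their long joint transcripts are cut and edited afterwards, and the transcripts do not carry the long poly(A) tails of nuclear mRNA. The labels call the molecule polyA RNA, but their extraction text allows for either oligo-dT selection or removal of rRNA. How much of the plastid RNA was captured in any library was not tested.

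The libraries held 20968769 to 22975621 expected counts in co-culture and 18616931 to 18881996 in plant alone. Over all 69984 unigenes tested, edgeR's quasi-likelihood test called 0 at an adjusted p of 0.05, while DESeq2 called 1294 on the same counts, and 5036 had an unadjusted edgeR p under 0.05. On simulated counts with the spread of these libraries, edgeR recovered 0% of 16-fold changes. A count of 0 edgeR calls here therefore does not show that levels were equal. Some libraries stood apart. In FPKM, fragments scaled to transcript length and library size, the 56 chlorophyll a-b binding unigenes that mark leaf tissue summed to between 3303 and 21448 FPKM in co-culture, with co-culture 3 at the low end, and to 4457 and 7165 FPKM in plant alone. Rubisco activase (10 unigenes) summed to between 544 and 7483 FPKM in co-culture and to 604 and 1283 FPKM in plant alone, so leaf markers were present in every library. Unigenes with a green algal hit (369) summed to between 1906 and 2289 FPKM in co-culture, against 2481 FPKM in plant alone 2 and 4461 FPKM in plant alone 3. Those with a hit in other algae (265) summed to between 927 and 1329 FPKM in co-culture, against 1236 FPKM in plant alone 2 and 4243 FPKM in plant alone 3. No unigene matched the cyanobacterial list. The deposited files hold unigene names and annotation but no unigene sequences, so members are identified here by name, length and hit.

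Plastid transcripts made up a smaller share of the leaf library in co-culture than in plant alone. No single gene passed the edgeR threshold, which at this spread also missed simulated 16-fold changes. The 128 land plant plastid unigenes held 0.274, 0.408 and 0.432% of the expected counts in co-culture 1, 2 and 3, against 0.676 and 0.490% in plant alone 2 and 3. By this share every co-culture library lay below both plant alone libraries, although co-culture 3 and plant alone 3 were close. The group means were 0.371 ± 0.085% in co-culture (SD, n = 3) and 0.583 ± 0.131% in plant alone (SD, n = 2), a log2 ratio of -0.65. Leaving out plant alone 2, the library with the highest share, brought the log2 ratio to -0.40, and leaving out plant alone 3 brought it to -0.86. Summed FPKM of the same 128 unigenes separated the groups only barely, with co-culture 3 at 1614 FPKM and plant alone 3 at 1620 FPKM. Co-culture 1 and 2 stood at 1009 and 1458 FPKM, while plant alone 2 reached 2210 FPKM, a log2 ratio of -0.49. Over all 153 members, nuclear genes included, summed FPKM overlapped (log2 ratio -0.16), although their share of counts did not (-0.53). Because the members were chosen with earlier results of these data known, neither the shares nor the sums carry a test. In bulk leaf RNA, fewer green cells and less plastid RNA per cell cannot be told apart.

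**Figure D1:**
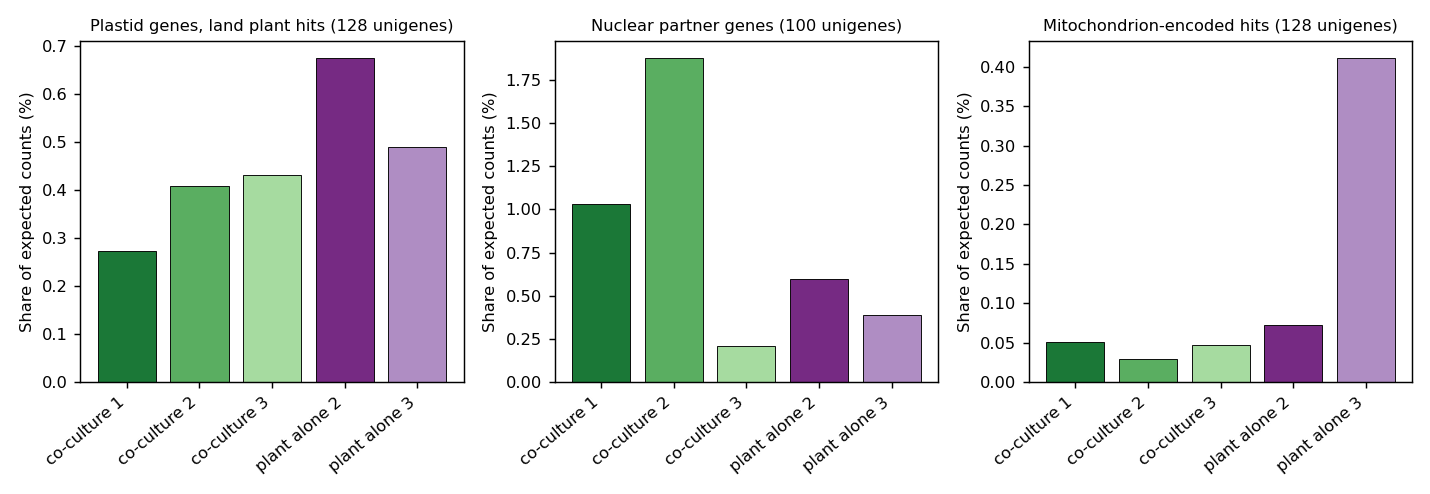
Share of each library's expected counts, in percent, held by 3 sets of unigenes: plastid genes with a land plant hit, their nuclear partner genes and mitochondrion-encoded hits (1 bar per library, co-culture in green at the left, plant alone in purple at the right, linear axes that start at 0 and differ between panels). Plastid genes ranged from 0.274 to 0.432% in co-culture and from 0.490 to 0.676% in plant alone, whereas the nuclear partners had both their highest and their lowest library within co-culture.

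Of the 153 members, 96 had enough counts to be tested. The fitted log2 change, co-culture over plant alone, was above 0 for 36 of them and below 0 for 60, while 49.9% of all unigenes tested lay below 0. edgeR called 0 members at an adjusted p of 0.05, and its background over all unigenes was likewise 0%. At an unadjusted edgeR p under 0.05 there was 1 member above 0 and 9 below, with backgrounds of 2.75 and 4.45%. Of the 9, 4 had an algal hit, and among land plant plastid unigenes alone there were 1 above and 5 below. Members near 0 in 1 group, such as CL7175.Contig1_zju in co-culture, passed the count filter only through the other group. The filter fixed the direction of such members, so their place in these tallies supports nothing. DESeq2 called 0 members upward and 5 downward, 3 of the 5 with an algal hit, against backgrounds of 0.879 and 0.97%. The FPKM values of the groups did not overlap for 8 members that were higher in co-culture and 26 that were lower, against backgrounds of 13.4 and 15.6%. The median log2 change of the tested members was -0.44, and that of all unigenes tested was 0.0013.

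Among the 81 tested unigenes of land plant plastid genes, 32 lay above 0 and 49 below, with a median log2 change of -0.40. Relative to the plant alone mean, the median log2 deviation of these 81 was -0.39, -0.30 and -0.30 in co-culture 1, 2 and 3, against 0.13 and -0.13 in plant alone 2 and 3. These medians were thus of similar size in all 3 co-culture libraries. The other 47 land plant members were too low to test, and 67 of the 128 had under 100 counts in all libraries together.

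The counts sat in few, often very long, unigenes. The 2 most abundant of the 128 held 46.2% of the class's counts, the top 5 held 77.6% and the top 10 held 90.6%. Their median length was 1011 bases, ranging from 203 to 13838 bases, and 19 exceeded 5000 bases, compared with 356 of all 111791 unigenes. A unigene of that length can span several neighbouring plastid genes but is named after its single best protein hit, so each gene name below stands for the transcript that carries the hit. The 128 unigenes named 36 plastid genes, and 43 of them had their hit in an Iris species.

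Because reads of near-identical unigenes can be assigned to either copy, counts were also summed per gene. Of the 36 gene sums, 32 were tested, with 21 below 0, 11 above 0 and a median log2 change of -0.45. The groups did not overlap in FPKM for 13 lower and 2 higher gene sums, against 15.6 and 13.4% of all unigenes tested. edgeR called 0 of them. At an unadjusted edgeR p under 0.05 there were 3, all lower (psbC, accD and rpoA), against 4.45% of all unigenes, and DESeq2 called 2 downward, psbC and accD. The DESeq2 backgrounds in that fit were 0.875% upward and 0.971% downward.

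**Figure D2:**
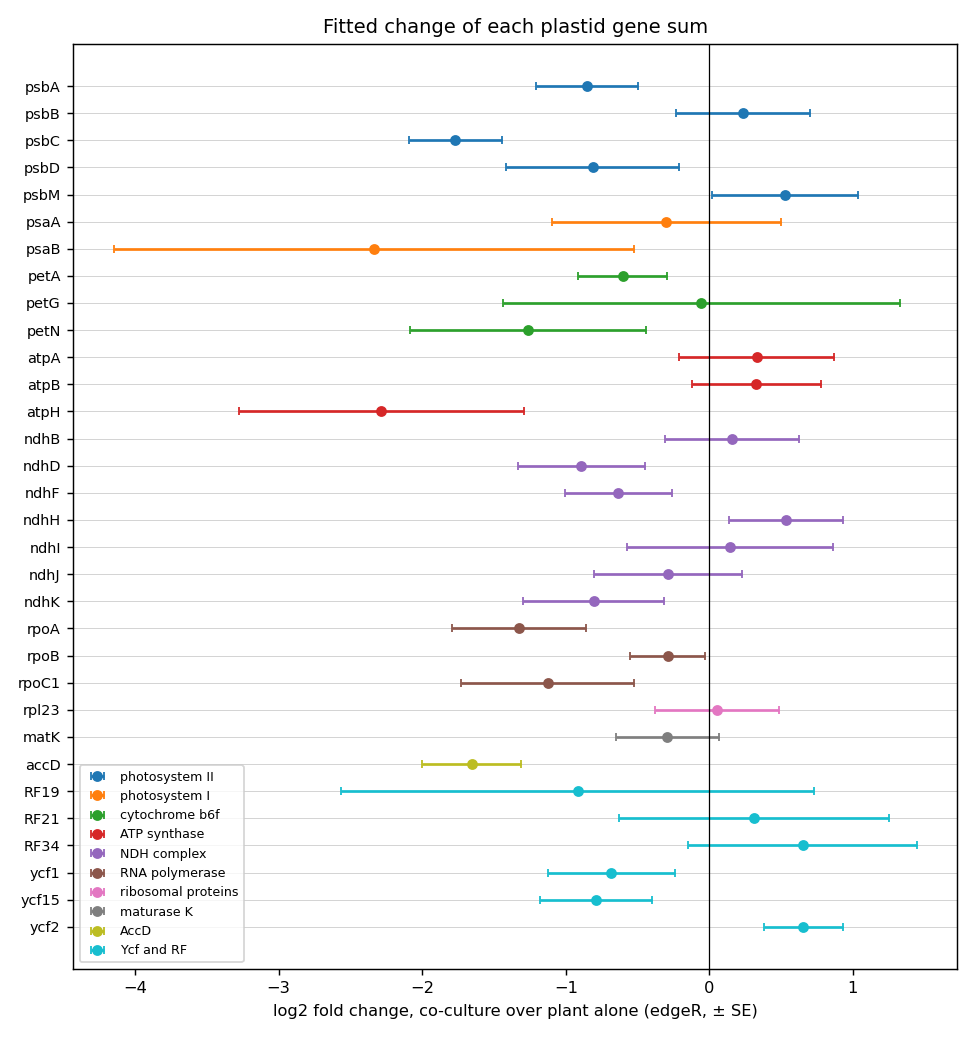
Fitted log2 fold change of each of the 32 tested plastid gene sums, co-culture over plant alone (points, edgeR, with bars of 1 SE), coloured by complex; the vertical line marks no difference. The sums of psbC (-1.77), accD (-1.65) and rpoA (-1.33) lie left of the line by several SE, ycf2 (0.65) lies to its right, and psaB and petG have the widest bars among the photosynthesis genes.

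Photosystem II, the complex that splits water, had lower summed levels in co-culture. Its 14 unigenes totalled 67.1, 55.9 and 46.8 FPKM in co-culture 1, 2 and 3, against 107.6 and 92.9 FPKM in plant alone 2 and 3, a log2 ratio of group means of -0.82 without overlap. Of the 12 tested, 7 lay above 0 and 5 below, with a median log2 change of 0.08. The sum was made mainly of psbA, which encodes the D1 reaction centre protein that is replaced continually in the light. psbA stood at 55.2, 41.2 and 34.5 FPKM in co-culture, against 87.7 and 68.1 FPKM in plant alone. All 3 co-culture values were below both plant alone values, and the fitted log2 change was -0.85 ± 0.36 (SE), with an edgeR adjusted p of 0.628. The psbA level was spread over 3 short unigenes of 511 to 537 bases. Their best hits lay in a liverwort, in Ginkgo and in Polygonatum, and the last of these (Unigene60468_zju) had 21.8, 7.45 and 9.81 FPKM in co-culture, against 41.9 and 32.6 FPKM in plant alone.

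psbC, which encodes the chlorophyll-binding inner antenna protein CP43, had the smallest p-value of any plastid gene sum. It stood at 3.59, 4.74 and 5.01 FPKM in co-culture 1, 2 and 3, against 12.9 and 17.0 FPKM in plant alone 2 and 3. The groups were well separated, with the highest co-culture library far below the lower plant alone library. The log2 change of the sum was -1.77 ± 0.32 (SE), with an unadjusted edgeR p of 0.0025, an edgeR adjusted p of 0.628 and a DESeq2 adjusted p of 0.00625. Leaving out any library kept it between -2.01 and -1.47. Its main unigene, CL2684.Contig3_zju (6355 bases), had a log2 change of -2.30 ± 0.39 and a DESeq2 adjusted p of 0.0013. The second, CL2684.Contig2_zju (6744 bases), had 0.78 and 2.78 FPKM in co-culture 1 and 2 but was at 0 in co-culture 3 and both plant alone libraries, and held 60.1% of psbC counts in co-culture 2.

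The other photosystem II genes were low and varied in placement. psbB, for the inner antenna protein CP47, had 4.22, 4.37 and 3.23 FPKM in co-culture, against 3.21 and 3.91 FPKM in plant alone, so its groups overlapped. psbM, for a small subunit, had 3.33, 5.11 and 3.22 FPKM in co-culture, against 2.68 and 2.71 FPKM in plant alone. It was 1 of the 2 gene sums whose co-culture values all lay above plant alone, with a log2 change of 0.53 ± 0.51 and an edgeR adjusted p of 0.802. psbD, for the D2 reaction centre protein, was at 0.79, 0.47 and 0.78 FPKM in co-culture, against 1.15 and 1.17 FPKM in plant alone, without overlap.

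**Figure D3:**
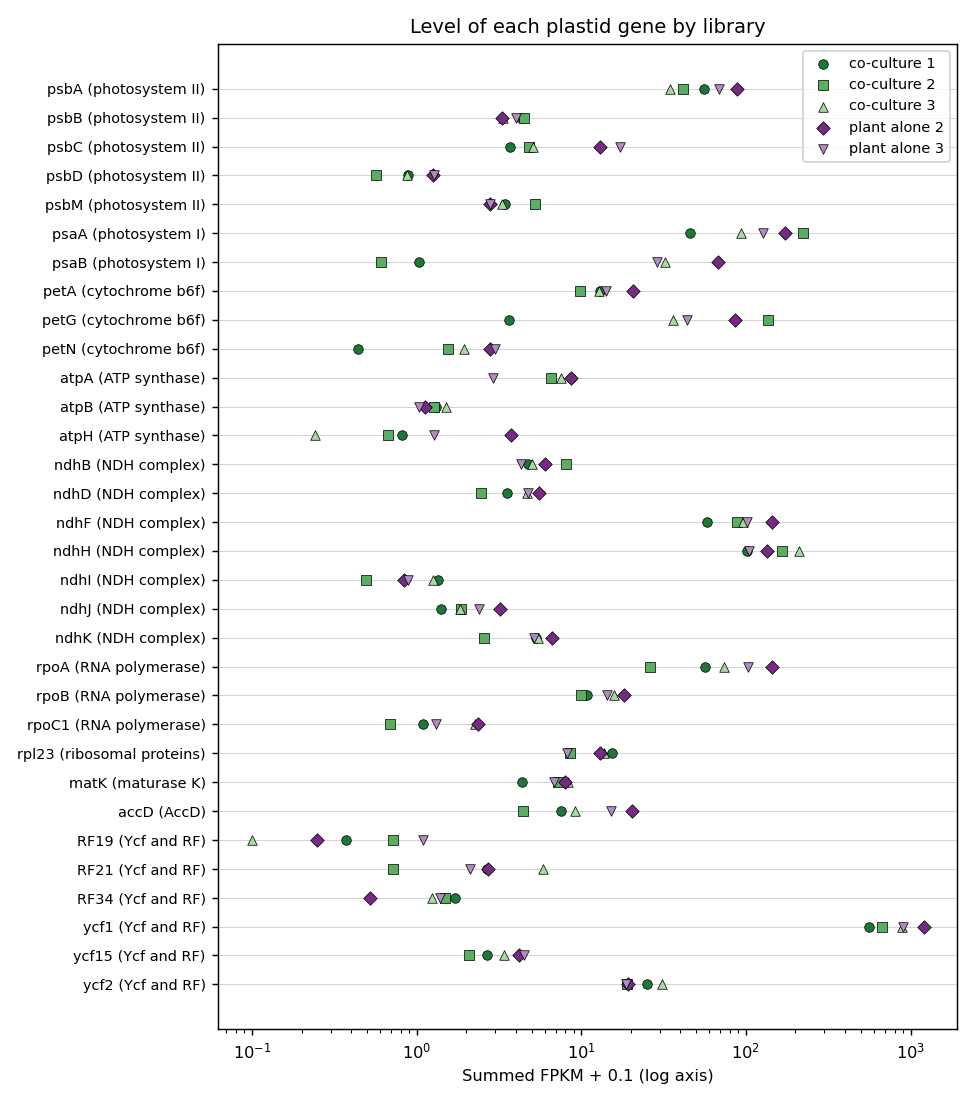
Summed FPKM plus 0.1 (log axis) of each of the 32 tested plastid genes in every library, grouped by complex from photosystem II at the top; green symbols are co-culture 1, 2 and 3 and purple symbols are plant alone 2 and 3. psbC, accD, rpoA and psbA have all green symbols left of the purple ones, psaA and petG have co-culture 2 at the far right and co-culture 1 at the far left, and ycf1 is the highest of these genes in every library.

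Photosystem I, which passes electrons on to ferredoxin, varied more among the co-culture libraries than between the groups. Its 8 unigenes totalled 46.6, 221.7 and 126.2 FPKM in co-culture, against 239.4 and 156.4 FPKM in plant alone. psaA, for a core reaction centre protein, had 45.7, 221.2 and 93.9 FPKM in co-culture, against 171.6 and 127.7 FPKM in plant alone. Co-culture 2 was thus above both plant alone libraries and co-culture 1 far below them, and the log2 change was -0.30 ± 0.80 with an edgeR adjusted p of 0.939. It became 0.11 without co-culture 1. psaB, for the partner protein of the same core, had 0.94, 0.51 and 32.4 FPKM in co-culture, against 67.9 and 28.7 FPKM in plant alone. Co-culture 3 sat between the plant alone libraries while co-culture 1 and 2 were near 0, so the log2 change of -2.34 had an SE of 1.81 and an edgeR adjusted p of 0.748. It was -6.27 without co-culture 3 and between -2.73 and -1.67 when any other library was left out. The main psaB unigene, CL2684.Contig1_zju, belongs to the same assembly cluster as the psbC unigenes, so reads may be divided among them.

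The cytochrome b6f complex links the photosystems, and its summed level was 18.1, 148.0 and 50.4 FPKM in co-culture, against 111.8 and 61.7 FPKM in plant alone. Most of this came from a single unigene with a petG hit (Unigene45423_zju, 1615 bases), petG encoding a small subunit of the complex. It had 3.53, 136.8 and 35.8 FPKM in co-culture, against 85.8 and 43.7 FPKM in plant alone, with co-culture 2 highest and co-culture 1 lowest of all 5 libraries. Its log2 change was -0.06 ± 1.38 with an edgeR adjusted p of 0.995, and its sign depended on the libraries used. petA, for cytochrome f, was steadier, with 12.9, 9.79 and 12.8 FPKM in co-culture, against 20.5 and 13.9 FPKM in plant alone. All its co-culture values were below plant alone, by a log2 change of -0.60 ± 0.31 (edgeR adjusted p 0.642). petN, for another small subunit, had 0.34, 1.45 and 1.83 FPKM in co-culture, against 2.71 and 2.88 FPKM in plant alone.

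The chloroplast ATP synthase was weakly represented, at 11.1, 8.39 and 10.2 FPKM in co-culture, against 13.2 and 5.25 FPKM in plant alone over 5 unigenes. atpA, for the alpha subunit of its catalytic head, had 8.51, 6.42 and 7.38 FPKM in co-culture, against 8.51 and 2.80 FPKM in plant alone. atpB, for the beta subunit, had 1.22, 1.18 and 1.41 FPKM in co-culture, against 1.02 and 0.93 FPKM in plant alone. It was the other gene sum with all co-culture values above plant alone, by a log2 change of 0.33 ± 0.45 (edgeR adjusted p 0.869). atpH, for the ring subunit in the membrane, had 49.6 counts in all libraries together and 0.71, 0.57 and 0.14 FPKM in co-culture, against 3.64 and 1.18 FPKM in plant alone.

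The NDH complex, which takes part in cyclic electron flow around photosystem I, overlapped between the groups as a whole. Its 24 unigenes totalled 174.4, 270.3 and 324.0 FPKM in co-culture, against 299.8 and 222.9 FPKM in plant alone, a log2 ratio of -0.03. Its 2 most abundant genes were placed on opposite sides of 0. ndhF, for a proton-channel subunit in the membrane, had 57.6, 88.8 and 95.8 FPKM in co-culture, against 143.6 and 101.1 FPKM in plant alone. Its groups did not overlap, and its log2 change was -0.63 ± 0.37 (edgeR adjusted p 0.670). ndhH, for a subunit of the peripheral arm, had 101.0, 166.5 and 210.5 FPKM in co-culture, against 134.4 and 104.9 FPKM in plant alone, with co-culture 2 and 3 highest and co-culture 1 lowest. Its log2 change was 0.53 ± 0.40 (edgeR adjusted p 0.740). The difference between the changes of ndhF and ndhH was not tested.

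Within ndhH, the longest unigene departed most. CL6210.Contig1_zju (5655 bases) had 2.02, 3.18 and 6.73 FPKM in co-culture, against 1.92 and 1.08 FPKM in plant alone, all co-culture values above plant alone and a log2 change of 1.32 ± 0.56 (edgeR adjusted p 0.628). The most abundant ndhH unigene, Unigene20075_zju (1016 bases), had 76.2, 126.5 and 156.4 FPKM in co-culture, against 109.2 and 85.0 FPKM in plant alone, and its groups overlapped. Of the remaining tested ndh genes, ndhD and ndhJ had all co-culture libraries below plant alone, while ndhB, ndhI and ndhK overlapped. A low ndhK unigene, CL7175.Contig1_zju, was at 0 in all 3 co-culture libraries and had 0.63 and 0.34 FPKM in plant alone.

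The plastid-encoded RNA polymerase, which transcribes most photosynthesis genes of the plastid, had lower summed levels in co-culture. Its 26 unigenes totalled 69.3, 37.2 and 91.8 FPKM in co-culture, against 164.6 and 119.4 FPKM in plant alone, a log2 ratio of -1.10 without overlap. rpoA, for the alpha subunit, made up most of it, with 56.5, 26.1 and 74.0 FPKM in co-culture, against 144.2 and 103.3 FPKM in plant alone. Each co-culture library was below both plant alone libraries. The log2 change was -1.33 ± 0.47, with an unadjusted edgeR p of 0.0351, an edgeR adjusted p of 0.628 and a DESeq2 adjusted p of 0.197. rpoB, for a catalytic subunit, had 10.8, 9.91 and 15.6 FPKM in co-culture, against 18.1 and 14.2 FPKM in plant alone, and its groups overlapped.

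The unigene that carried rpoA was not the same from library to library. Unigene46092_zju (8247 bases) held 98.8% of rpoA counts in co-culture 1 and 97.6 and 97.5% in plant alone 2 and 3, but 0% in co-culture 2 and 0.51% in co-culture 3. In co-culture 2, Unigene46101_zju (8234 bases) held 98.0%, and it was at 0 in every other library. In co-culture 3, Unigene46090_zju (8246 bases) held 97.4%, against 0.78 and 1.04% in plant alone 2 and 3. These unigenes are almost equal in length, and the log2 change of Unigene46092_zju taken alone, -2.69, had an SE of 2.74. The 6 petA unigenes showed the same kind of exchange. Unigene26918_zju held 29.9% of petA counts in co-culture 2 and 0 in the other 4 libraries, and Unigene26925_zju (576 bases) was present in all 5. Unigene26923_zju held 24.9% in co-culture 1 and 39.5 and 30.01% in plant alone 2 and 3, but 0 in co-culture 2 and 3. Unigene26927_zju had 1.03 and 0.24 FPKM in co-culture 2 and 3 and was at 0 in the other libraries. Of the 26 plastid genes with more than 1 unigene, 13 had the same leading unigene in all 5 libraries, and of the 17 with at least 1000 counts, 9 did.

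**Figure D4:**
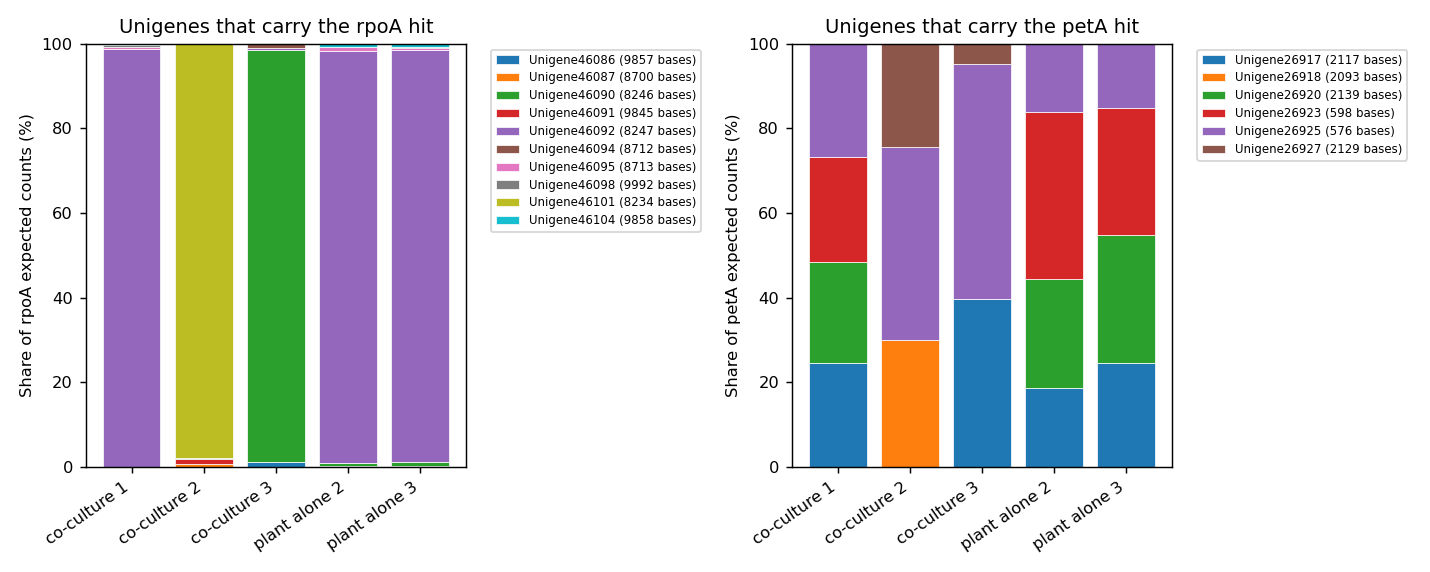
Share of the expected counts of rpoA (left) and petA (right) held by each of their unigenes, in percent, in the 3 co-culture libraries and then the 2 plant alone libraries; each colour is 1 unigene and each bar adds to 100%. For rpoA a different unigene of almost the same length leads in co-culture 1, 2 and 3, while both plant alone libraries share the leader of co-culture 1.

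accD, for the plastid-encoded subunit of the acetyl-CoA carboxylase that starts fatty acid synthesis, was also lower in co-culture in every library. It had 7.43, 4.35 and 9.01 FPKM in co-culture 1, 2 and 3, against 20.3 and 15.1 FPKM in plant alone 2 and 3. The log2 change of the sum was -1.65 ± 0.35, with an unadjusted edgeR p of 0.0045, an edgeR adjusted p of 0.628 and a DESeq2 adjusted p of 0.0131. Leaving out any library kept it between -1.77 and -1.41. Its main unigene, Unigene42372_zju (3509 bases, hit in Iris sanguinea), had a log2 change of -1.89 ± 0.37 and a DESeq2 adjusted p of 0.00666. That unigene held 75.0 to 93.4% of accD counts, and of the 5 accD unigenes tested 2 lay above 0 and 3 below. Low unigenes for the carboxyltransferase beta subunit that the phrases missed went both ways. Unigene10418_zju had a log2 change of -1.56 ± 0.60 and Unigene23359_zju one of 1.48 ± 0.83.

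The sums of rpl23 and matK overlapped between the groups. rpl23, for a protein of the large ribosomal subunit, had 15.4, 8.49 and 13.6 FPKM in co-culture, against 12.9 and 8.09 FPKM in plant alone. Its unigene Unigene55146_zju (1556 bases) did not overlap, with 10.8, 8.49 and 10.5 FPKM in co-culture, against 5.30 and 6.43 FPKM in plant alone, a log2 change of 0.71 ± 0.32 and an edgeR adjusted p of 0.628. matK, the maturase that helps to splice group II introns, had 4.26, 7.10 and 8.26 FPKM in co-culture, against 7.82 and 6.73 FPKM in plant alone, a log2 change of -0.29 ± 0.36.

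ycf1 and ycf2 are the largest open reading frames of the plastid genome, and in Arabidopsis their products have been linked to protein import into the chloroplast. In FPKM, ycf1 had the highest level of the 36 genes in all 5 libraries. It had 562.8, 672.5 and 892.3 FPKM in co-culture, against 1204 and 904.2 FPKM in plant alone, so the groups did not overlap but co-culture 3 and plant alone 3 nearly met. The log2 change was -0.68 ± 0.44 (edgeR adjusted p 0.700). Almost all of it lay in CL4846.Contig1_zju (8021 bases) and CL4846.Contig4_zju (1216 bases). A short unigene described as hypothetical chloroplast RF1, CL15498.Contig3_zju (323 bases), had 9.61, 2.97 and 43.1 FPKM in co-culture, against 99.8 and 81.6 FPKM in plant alone, a log2 change of -2.46 ± 0.98 (edgeR adjusted p 0.628).

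ycf2 was placed on the other side. Its 14 unigenes summed to 25.0, 18.8 and 30.6 FPKM in co-culture, against 19.01 and 18.6 FPKM in plant alone, and co-culture 2 lay between the plant alone values. The log2 change of the summed counts was 0.65 ± 0.28 (edgeR adjusted p 0.628). Its main unigene, Unigene713_zju (1121 bases), had 12.8, 9.53 and 16.5 FPKM in co-culture, against 6.37 and 5.70 FPKM in plant alone. All co-culture values were above plant alone there, and its log2 change of 1.03 ± 0.33 was the single member above 0 with an unadjusted edgeR p under 0.05 (0.0247), with an edgeR adjusted p of 0.628 and a DESeq2 adjusted p of 0.0577. A shorter ycf2 unigene, Unigene20168_zju (356 bases), went the other way, with 0.66, 0.13 and 0.86 FPKM in co-culture, against 2.57 and 2.44 FPKM in plant alone.

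Further transcripts of the plastid genome escaped the phrases because their hits, in Iris gatesii, carry no tag. These 41 unigenes were picked out after values had been seen and so carry no test as a set. Of them 22 were tested, with 8 above 0 and 14 below and a median log2 change of -0.40. edgeR called 0 of these and DESeq2 called 2 downward, against backgrounds over all unigenes of 0 and 0.97%. CL1905.Contig1_zju (6480 bases), for the RNA polymerase beta' subunit, had 24.6, 23.1 and 21.1 FPKM in co-culture, against 57.5 and 44.8 FPKM in plant alone, a log2 change of -1.18 ± 0.32 with a DESeq2 adjusted p of 0.0468. A unigene for ribosomal protein S4, CL9435.Contig4_zju, had 15.1, 15.3 and 83.8 FPKM in co-culture, against 275.7 and 165.1 FPKM in plant alone. The most abundant of the 41 was Unigene61724_zju, for ribosomal protein L32. It had 468.0, 1001 and 727.1 FPKM in co-culture, against 879.4 and 493.0 FPKM in plant alone. Its groups overlapped, with a log2 change of 0.10 ± 0.52. The Rubisco large subunit unigene CL10933.Contig1_zju had 11.9, 13.3 and 11.1 FPKM in co-culture, against 24.4 and 10.4 FPKM in plant alone, so its groups overlapped.

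Nuclear genes whose products join the plastid-encoded subunits were placed differently. The 100 nuclear partner unigenes (small Rubisco subunit, nuclear photosystem, ATP synthase, cytochrome b6f and NDH subunits) summed to 10383, 18914 and 2296 FPKM in co-culture 1, 2 and 3, against 5759 and 4047 FPKM in plant alone 2 and 3. Co-culture 1 and 2 were above both plant alone libraries and co-culture 3 below both. Of 98 tested, 86 were above 0 and 12 below, with a median log2 change of 1.16. edgeR called 0 of these, and DESeq2 called 1 in each direction. The DESeq2 backgrounds over all unigenes were 0.879% upward and 0.97% downward. Their median log2 deviations were 1.01, 1.88 and -1.01 in the co-culture libraries and 0.33 and -0.33 in those of plant alone. For the 81 tested land plant plastid unigenes, only the median over the whole set was of similar size in all 3 co-culture libraries. Single complexes varied more, such as photosystem I with medians of -1.55, 0.11 and -0.71 in co-culture 1, 2 and 3. The difference between the nuclear partners and the plastid unigenes was not tested.

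The nuclear-encoded machinery of plastid gene expression (142 unigenes: sigma factors, splicing and RNA-binding proteins, chloroplast ribosomal proteins and translation factors) was placed like the nuclear partners. It summed to 2861, 4383 and 1506 FPKM in co-culture, against 2377 and 1523 FPKM in plant alone. Of 128 tested, 99 were above 0 and 29 below, with a median log2 change of 0.57. edgeR called 0 of these and DESeq2 called 1 upward, against backgrounds over all unigenes of 0 and 0.879%. Among the members themselves, the 7 nuclear genes caught by the phrases comprised a small Rubisco subunit with a chloroplast tag, 5 ycf20-like genes and ycf23. The small Rubisco subunit (Unigene11257_zju) had 1162, 1657 and 170.4 FPKM in co-culture, against 854.4 and 251.1 FPKM in plant alone, with co-culture 3 lowest of all libraries.

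Transcripts of the mitochondrial genome, which likewise lack long poly(A) tails, gave a comparison with the other organelle. The 128 mitochondrion-encoded unigenes were taken by a (mitochondrion) tag alone, so hits in organisms other than land plants were not set apart. They summed to 395.1, 230.6 and 418.6 FPKM in co-culture, against 587.9 and 4160 FPKM in plant alone, with plant alone 3 far above the rest. Of 92 tested, 25 were above 0 and 67 below, with a median log2 change of -0.54. edgeR called 0 of these and DESeq2 called 3 downward, against backgrounds over all unigenes of 0 and 0.97%. The downward placement was therefore found in both sets of organelle hits, the mitochondrial one without a split by species. Whether capture of RNA without long tails differed between the libraries was not tested.

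The 15 members with an algal or amoebal hit had lower summed levels in co-culture than in plant alone, where no alga was added. Their hits lay in red, brown and green algae, diatoms, cryptophytes, a dinoflagellate, a stramenopile alga and the photosynthetic amoeba Paulinella, and none lay in Dictyosphaerium. They were short, 204 to 1055 bases with a median of 314, and encoded mainly plastid ribosomal proteins and the elongation factor Tu. Summed, they stood at 6.81, 3.41 and 13.7 FPKM in co-culture, against 35.9 and 322.9 FPKM in plant alone, which corresponded to 61, 35 and 96 counts in co-culture, against 300 and 1952 counts in plant alone. Plant alone 3 was the highest library for 10 of the 15, plant alone 2 for 4 and co-culture 1 for 1. The log2 ratio of the group means was -4.49, and -2.17 without plant alone 3. Plant alone 3 was also the library with the highest sums of green algal, other algal and mitochondrial hits.

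Only 6 of the 15 had enough counts in enough libraries to be tested, and all 6 lay below 0. edgeR called 0 of these and DESeq2 called 3 downward, against backgrounds over all unigenes of 0 and 0.97%. Those 3 had between 0 and 4 counts in each co-culture library and passed the count filter through plant alone, so the filter fixed their direction and the counts support nothing about the class. A unigene with a hit to ribosomal protein S16 of the brown alga Fucus (Unigene30516_zju, 636 bases) had 0.14, 0.28 and 0.23 FPKM in co-culture, against 4.71 and 34.6 FPKM in plant alone. Its log2 change was -6.51 ± 1.09 (edgeR adjusted p 0.628, DESeq2 adjusted p 2.1e-05). A unigene with a hit to ribosomal protein S5 of the dinoflagellate Karenia (Unigene39826_zju, 220 bases) had 0.92, 0.23 and 0.76 FPKM in co-culture, against 12.6 and 8.77 FPKM in plant alone, a log2 change of -4.06 ± 0.75. Both plant alone libraries were above all co-culture libraries for this unigene. With so few counts in co-culture, the filter already required counts in both, so no conclusion is drawn from this. The third, with a hit to ribosomal protein L12 of the alga Trachydiscus (Unigene35411_zju, 1055 bases), had 0.08, 0.12 and 0 FPKM in co-culture, against 5.99 and 0.87 FPKM in plant alone. The green algal psaB unigene (Unigene50842_zju, hit in Ostreobium), for the photosystem I core of an alga, had 1.28, 0.78 and 2.58 FPKM in co-culture, against 2.74 and 1.45 FPKM in plant alone, and its groups overlapped.

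The authors' deposited table pools the libraries of each group, and its plant alone column includes reads not analysed here. In the authors' deposited table the 128 land plant plastid unigenes held 0.370% of pooled co-culture counts and 0.526% of pooled plant alone counts, a log2 ratio of -0.51. By the same measure, the authors' deposited table gave log2 ratios of -2.23 for psbC, -1.53 for accD, -1.01 for rpoA and 0.93 for ycf2, with the same signs as in the 5 libraries. The pooled columns include these 5 libraries, so the shared signs are not independent. The authors' deposited table gave larger downward ratios for psbA, -2.75, and matK, -1.84. Its sign was opposite to that of the 5 libraries for atpB, at -1.17, psbB, at -0.92, ndhB, at -0.82, and psbM, at -0.36, among others. These pooled ratios carry no error, since the table gives no values per sample.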

How the data were processed

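Each library's file, as deposited by the authors, held expected counts estimated by RSEM, with FPKM values beside them, for unigenes that had reads. Per the submitters' processing notes, the authors used Bowtie2, RSEM and DESeq2 (no versions stated). A second deposited table held the authors' expected counts pooled per group.

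Unigenes that a library did not list were taken as 0, and expected counts were rounded to whole numbers. All unigenes were tested in a single fit with edgeR 4.0.16 in R 4.3.3 (default filter on low counts, TMM scaling, quasi-likelihood test, no replicate block), with Benjamini-Hochberg adjustment over all unigenes tested and a threshold of 0.05. DESeq2 1.42.0 was an alternative, and its missing adjusted p-values stayed missing. Gene sums added the counts of land plant members of the same gene, with every other unigene kept as it was. Library medians used log2(CPM + 0.5). A group at 0 gets no fold change here. Summed FPKM values and shares of counts are descriptions without a test.

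The members, the lists and most tests were chosen with earlier results of these data known. Named unigenes were the most abundant of each role class, the 6 with the smallest edgeR p-value in each direction, and the most abundant for each phrase other than the tags. Gene sums, the Iris gatesii hits without a tag and the class of algal hits were added after values were seen.

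On simulated counts with the spread of these libraries (common biological coefficient of variation 0.773), edgeR recovered 0% of 4-fold changes (63939 unigenes run) and 0% of 16-fold changes (63789). With the dispersion multiplied by 0.1 it recovered 82.5 and 99.5%.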

Additional observations from a re-analysis of the deposited data

How the results depend on the processing

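Depth limits 67 of the 128 land plant unigenes, which rest on under 100 counts. DESeq2 called 1294 unigenes and 5 members where edgeR called 0, and the other edgeR settings (RLE size factors, no filter, a stricter filter, contigs summed per cluster or per gene, each library left out) also called 0. The median log2 change of the members, -0.44, ranged from -0.52 to -0.33 under other scalings, filters, units and memberships and from -0.29 (without co-culture 2) to -0.38 with a library left out, with -0.30 without plant alone 2. The median of all unigenes moved to 0.18 when plant alone 2 was left out and to 0.13 when plant alone 3 was. The log2 ratio of the members' share of counts, -0.53, ranged from -0.76 to -0.26 with a library left out, and that of land plant members, -0.65, from -0.86 to -0.40. The algal sum, -4.49, ranged from -5.34 to -2.17.

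Replicate numbers 2 and 3 are shared by the groups, and the correlation of their differences was 0.06, with too few pairs to say that the numbers pair the samples. With the replicate number as a block, the count called stayed at 0 and the median was -0.40. The block turned the sign of petG (0.14, also as Unigene45423_zju), rpl23 (-0.17), RF21 (-0.31) and ndhI (-0.24).

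Signs also turned with a library left out. The petG sum ranged from -1.84 (without co-culture 2) to 0.51, with 0.28 without co-culture 3 and 0.43 without plant alone 2, and Unigene45423_zju alone did the same. The psaA sum ranged from -1.28 to 0.11 and its unigene CL14095.Contig1_zju from -1.30 to 0.10, both highest without co-culture 1. The rpl23 sum ranged from -0.27 (without plant alone 3) to 0.51, with -0.16 without co-culture 1. The atpA sum ranged from -0.21 to 1.25 and CL3452.Contig1_zju from -0.22 to 1.24, both lowest without plant alone 3. The ndhB sum ranged from -0.25 (without co-culture 2) to 0.40, with -0.028 without plant alone 3, and the psbB sum from -0.13 (without co-culture 2) to 0.63, with -0.060 without plant alone 3. The RF21 sum ranged from -0.47 (without co-culture 3) to 0.84, the RF19 sum from -1.74 to 1.17 (without plant alone 3), and the matK unigene CL5714.Contig4_zju from -0.67 (without co-culture 3) to 0.98. Summed per cluster, CL2684.Contig2_zju became -2.14, since the cluster also holds the other psbC unigene and psaB. The cause of the other turns in sign was not tested. Sums of FPKM over complexes turned sign by less than the spread between replicates. NDH became 0.19 without co-culture 1 and 0.20 without plant alone 2, cytochrome b6f 0.19 and 0.23 in the same cases, maturase K 0.08 without co-culture 1, the ribosomal proteins -0.06 without co-culture 1 and -0.23 without plant alone 3, and ATP synthase -0.42 without plant alone 3. The ATP synthase sum, 0.10 with all libraries, also rose to 0.91 without plant alone 2, so it depended strongly on which plant alone library was kept. Under DESeq2, 7 values passed the threshold that they missed under edgeR.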
